A study of Mus musculus with 3 samples.

Results

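The 7 genes described here encode 3 enzymes that build the ganglioside GD2 (St3gal5, St8sia1 and B4galnt1) and 4 cell surface proteins studied as targets of immunotherapy in neuroblastoma (Cd276, L1cam, Gpc2 and Ncam1). They were chosen by name among the 31053 genes of the raw files, and were followed over the 5650 cells kept by the authors, per tumor and per cell class. The question was how far the transcripts of each gene were restricted to tumor cells.

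The data are single-cell RNA profiles of 3 whole tumors, each from 1 mouse, and all 3 form a single group with no other condition. Every mouse was heterozygous for the TH-MYCN transgene, in which human MYCN is driven by the tyrosine hydroxylase promoter, so that tumors arise from cells of the sympathetic lineage, and no animal without the transgene was included. Tumors 1, 2 and 3 were taken at 62, 79 and 63 days of age. With 3 animals and no normal sympathetic tissue, restriction can be described only against the other cells of the same tumors.

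Gangliosides are sphingolipids of the outer membrane that carry sialic acid. St3gal5 adds the first sialic acid to lactosylceramide and makes GM3, St8sia1 adds a second and makes GD3, and B4galnt1 adds N-acetylgalactosamine and turns GD3 into GD2. GD2 is the lipid bound by the antibodies used against neuroblastoma, and B4galnt1 also acts on GM3, which leads to other gangliosides. Transcripts say nothing direct about the amount of a lipid or of a surface protein.

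Among the surface proteins, Cd276 (B7-H3) is an immune checkpoint molecule of the B7 family, L1cam and Ncam1 are adhesion molecules of the immunoglobulin superfamily with roles in axon growth, and Gpc2 is a heparan sulfate proteoglycan of the glypican family. On the mouse build GRCm38 (annotation GENCODE M21), St3gal5 lies on chromosome 6 from 72097592 to 72154571 (plus strand), St8sia1 on chromosome 6 from 142821545 to 142964452 (minus strand) and B4galnt1 on chromosome 10 from 127165225 to 127172330 (plus strand). Cd276 lies on chromosome 9 from 58524298 to 58555437 (minus strand) and Ncam1 on the same chromosome from 49502136 to 49798925 (minus strand). L1cam lies on chromosome X from 73853778 to 73896105 (minus strand), and Gpc2 on chromosome 5 from 138273655 to 138280005 (minus strand). All 7 are annotated as protein coding, and the counts are of whole genes rather than of exons or isoforms.

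Depth differed between tumors. The kept cells numbered 1914, 1221 and 2515 in tumors 1, 2 and 3, with median counts of 4282.5, 1594 and 1816 unique molecular identifiers (UMIs, 1 for each captured RNA molecule). They fell into 21 clusters, of which 6, with 3320 cells, met the tumor markers fixed for naming (sympathetic transcription factors, enzymes and neuronal or secretory genes, such as Hand2, Th, Dbh, Chga and Stmn2), and are called tumor-like. There were 10 other named classes, with 889 macrophage-like, 312 neutrophil-like, 245 B cell-like, 231 T cell-like, 115 plasmacytoid dendritic-like, 93 endothelial-like, 86 CAF-like (cancer-associated fibroblast), 47 NK cell-like, 27 mesothelial-like and 26 erythroid-like cells. The 259 cells of 2 further clusters stayed unnamed and entered no comparison. The tumors shared at most 3 cell barcodes between any pair.

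The cluster with the fewest markers, cluster 7, met 3 of the 10, and its 64 cells of tumor 1 departed from the tumor-like name. Their tumor markers summed to 263 CPM (a count scaled by the library's total), against 2102 to 2851 CPM in the other tumor-like clusters of tumor 1, and 4 of the 10 markers were at 0. In tumors 2 and 3 the same cluster reached 1869 and 2363 CPM. Of the members, B4galnt1 rests most on these cells: in tumor 1 its tumor-like level was 55.5 UMIs per 1e+06 with them and 40.6 without, so every tumor-like value of B4galnt1 in tumor 1 given here includes them unless stated.

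The 7 genes were sparse in tumor-like cells, apart from Ncam1. Tumor-like cells of the 3 tumors held 1322 UMIs of Ncam1, 275 of St8sia1, 151 of B4galnt1, 122 of St3gal5, 100 of Cd276, 59 of L1cam and 14 of Gpc2. These counts are not compared between genes, because capture differs from gene to gene.

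**Figure D1:**
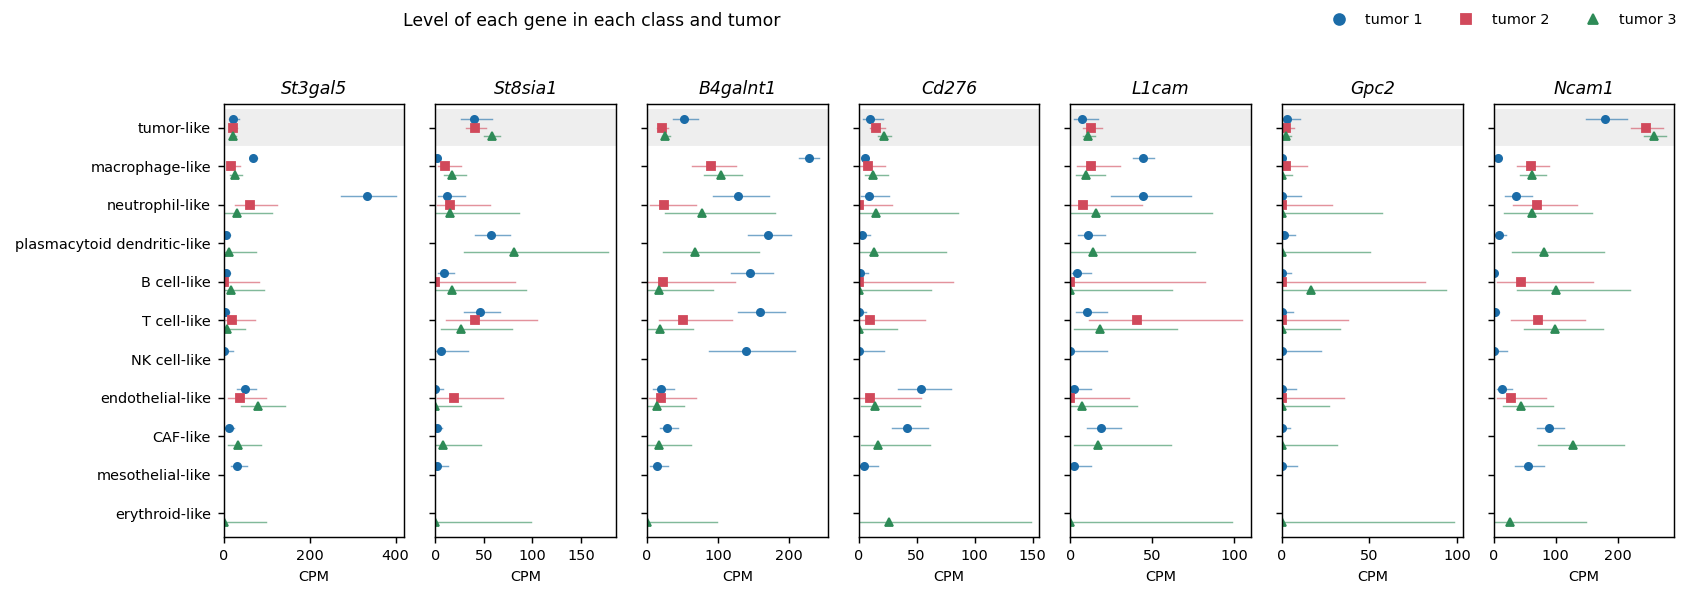
Level of each of the 7 genes (CPM on the x axes, which differ between panels) in each class (rows) and tumor (symbols), with exact 95% Poisson intervals of the summed counts, which cover counting error only. Classes with fewer than 10 cells in a tumor have no point, and the shaded row is the tumor-like class: for Ncam1 its 3 points lie between 179.7 and 259 CPM, above every other sum, and for B4galnt1 they lie below the macrophage-like sums of the same tumors.

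Tumor-like cells held 5.33%, 64.7% and 76.1% of all UMIs of the named cells in tumors 1, 2 and 3. Of the Ncam1 UMIs they held 45.6%, 87.4% and 89.8%, and of the St8sia1 UMIs 24.1%, 81.6% and 88.5%, above the share of all genes in each tumor. Of the B4galnt1 UMIs they held 2.53%, 39.5% and 49.7%, below it in each tumor. The shares were 3.11%, 57.4% and 65.5% for St3gal5, 2.09%, 65.5% and 72.9% for L1cam and 7.53%, 74.2% and 80.5% for Cd276. For Gpc2 they were 66.7%, 80% and 88.9%, of 3, 5 and 9 UMIs in all, too few to set beside the share of all genes. The 10 tumor markers, at 69.7%, 85.6% and 88.7%, give the same measure for genes chosen to mark these cells. In such sums fewer expressing cells and less RNA per cell cannot be told apart.

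To ask how tumor-like cells compared with the rest of their own tumor, all other named cells of each tumor were summed, giving 3 sums against 3. St8sia1 and Ncam1 were higher in the tumor-like sums, B4galnt1 and St3gal5 were lower, and Cd276 and L1cam did not pass the test. Gpc2 had too few counts to enter the test. Of the 10225 genes tested, 8.37% were called higher and 25% lower at an adjusted p under 0.05 (edgeR), so 2 of the 6 tested members were called in each direction against that background.

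Ncam1 had 172, 203 and 205 CPM in the tumor-like sums of tumors 1, 2 and 3, and 15.9, 64.6 and 79.6 CPM in the other cells. The 3 tumor-like values lay close together and above all 3 others. The difference was 1.90 ± 0.55 on the log2 scale (± SE, n = 3 tumors, adjusted p = 0.0353), with Ncam1 higher in 3 of 3 tumors.

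St8sia1, the GD3 synthase, had 38.6, 33.7 and 46.1 CPM in tumor-like cells and 9.39, 16.7 and 20.3 CPM in the other cells. The groups did not overlap, and the gap was widest in tumor 1. The log2 difference was 1.42 ± 0.36 (SE, n = 3, adjusted p = 0.0223), again with the tumor-like sum higher in 3 of 3 tumors.

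B4galnt1, the GD2 synthase, showed the opposite order. Its tumor-like values were 49.6, 17.4 and 20.7 CPM, and those of the other cells 147.8, 58.6 and 71.1 CPM. Within each tumor the other cells were higher by about the same factor, and tumor 1 was the highest in both groups. The log2 difference was -1.75 ± 0.52 (SE, n = 3, adjusted p = 0.0385). Without cluster 7 it was -2.002 (adjusted p = 0.0102), since 12 of the 36 tumor-like UMIs of B4galnt1 in tumor 1 came from its 64 cells.

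St3gal5, which makes GM3, had 20.7, 19.0 and 17.96 CPM in tumor-like cells and 49.9, 31.1 and 32.2 CPM in the others. The tumor-like values were nearly level across tumors, and no tumor-like sum reached any of the others. The log2 difference was -1.01 ± 0.29 (SE, n = 3, adjusted p = 0.0342).

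For the other surface proteins, the test made no call. Cd276 had 9.65, 12.5 and 17.5 CPM in tumor-like cells and 9.18, 9.56 and 14.4 CPM in the others, with a log2 difference of 0.34 ± 0.36 (SE, n = 3, adjusted p = 0.471). L1cam had 6.89, 10.3 and 8.73 CPM against 24.97, 11.95 and 11.002 CPM, a log2 difference of -0.93 ± 0.42 (SE, n = 3, adjusted p = 0.113). The L1cam groups did not overlap, but in tumors 2 and 3 the values stood close together. Gpc2 had 2, 4 and 8 UMIs in tumor-like cells and 1 UMI in the other cells of each tumor, and both sums of tumor 1 were under the level of 3 counts, so no fold is given.

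**Figure D2:**
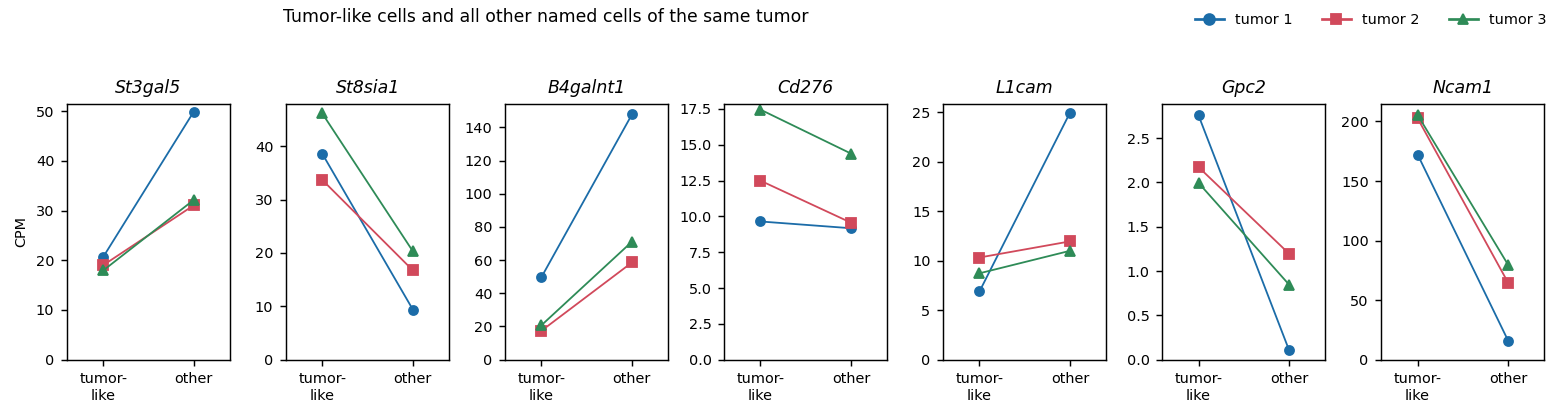
CPM of each gene (y axes start at 0 and differ between panels) in the tumor-like sum and in the sum of all other named cells of the same tumor, with 1 line per tumor. Lines for St8sia1 and Ncam1 slope down and those for B4galnt1, St3gal5 and L1cam slope up in 3 of 3 tumors, and the Cd276 lines are nearly flat.

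The 4 calls held without tumor 1 and with the tumor as a block, where 14.1% of all genes were called higher and 26.9% lower. With DESeq2 St3gal5 missed the threshold (adjusted p = 0.05004) and the other 3 held. None held without tumor 2 or without tumor 3 (adjusted p from 0.103 to 0.168). With the authors' corrected counts, made by them to remove ambient RNA, St3gal5 was the 1 member still called (adjusted p = 0.0451, against 0.165 for Ncam1, 0.0932 for St8sia1 and 0.165 for B4galnt1). The directions of all 6 tested members were the same in each of these settings.

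The sum of the other cells is set by the most frequent classes, so tumor-like cells were also compared with each class that had sums in at least 2 tumors. Here St8sia1 was higher than in CAF-like, endothelial-like and macrophage-like cells, B4galnt1 was lower than in macrophage-like cells and St3gal5 lower than in neutrophil-like cells. The other 37 of the 42 pairs tested did not pass, Ncam1 included. Over all genes the share called higher was 1.79% against B cell-like, 1.97% against CAF-like, 3.76% against endothelial-like, 7.48% against macrophage-like, 9.65% against neutrophil-like, 3.58% against plasmacytoid dendritic-like and 0.378% against T cell-like cells, and the share called lower was 4.63%, 13.4%, 12%, 14.8%, 13.9%, 9% and 4.01% in the same order.

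St8sia1 reached 40.3, 40.9 and 58.1 CPM in tumor-like cells of tumors 1, 2 and 3, on the scale of the 25 class sums, which differs slightly from the scale of the 6 sums above. In macrophage-like cells it reached 1.42, 10.3 and 17.7 CPM, a log2 difference of 2.48 ± 0.74 (SE, adjusted p = 0.0204, beside 7.48% of all genes called higher in this pair). CAF-like and endothelial-like cells each held 2 UMIs of St8sia1 in all. The ratio of the summed counts was therefore 24.0 for CAF-like cells (exact 95% interval 6.57 to 199.8) and 17.5 for endothelial-like cells (4.81 to 145.5), intervals that cover counting error only, with adjusted p = 0.0201 and 0.0196 (1.97% and 3.76% of all genes called higher).

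St8sia1 was not restricted to tumor-like cells. Plasmacytoid dendritic-like cells held 56.95 and 81.5 CPM in tumors 1 and 3 (42 and 6 UMIs), with no sum in tumor 2. They lay above the tumor-like value of the same tumor in both. T cell-like cells held 45.7, 41.0 and 26.9 CPM and overlapped the tumor-like cells, but on 27, 4 and 3 UMIs, so the counts of tumor 1 carry most weight. In tumors 2 and 3 the T cell-like sums also held the 10 tumor markers at 42.7% and 49.3% of their tumor-like level. The part of free tumor RNA in their St8sia1 was not tested. The log2 differences of tumor-like cells from plasmacytoid dendritic-like and T cell-like cells were -0.49 ± 0.77 and 0.25 ± 0.71 (SE, adjusted p = 0.691 and 0.878), so neither neighbour in the order of levels differed beyond its spread.

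B4galnt1 was highest in immune cells. Macrophage-like cells held 228, 90.6 and 104.8 CPM and tumor-like cells 51.8, 21.1 and 26.1 CPM, a log2 difference of -2.13 ± 0.70 (SE, adjusted p = 0.0324, and -2.57 without cluster 7, beside 14.8% of all genes called lower in this pair). Plasmacytoid dendritic-like cells held 171 and 67.9 CPM, and the lone NK cell-like sum 139 CPM. CAF-like cells held 23.0 ± 8.48 CPM (SD, n = 2) and endothelial-like cells 17.99 ± 3.004 CPM (SD, n = 3), beside 33.0 ± 16.4 CPM in tumor-like cells (SD, n = 3). Neither pair was called (adjusted p = 0.813 and 0.523). In tumor 1 both classes were below the tumor-like level, on 22 and 9 UMIs. Their sums in tumors 2 and 3 held 2 UMIs each, so no order is read there. B cell-like and T cell-like cells were high in tumor 1, at 145.8 and 159 CPM. In tumors 2 and 3 they lay between 16.8 and 51.2 CPM, on 1 to 5 UMIs a sum.

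St3gal5 had its highest mean in neutrophil-like cells, carried by tumor 1, at 333, 62.5 and 30.9 CPM, the last on 2 UMIs, against 21.6, 23.1 and 22.6 CPM in tumor-like cells. Each neutrophil-like sum exceeded the tumor-like sum of its tumor, though the spread between tumors was wide, and the log2 difference was -2.79 ± 0.68 (SE, adjusted p = 0.00501, beside 13.9% of all genes called lower). Endothelial-like cells held 49.2, 38.6 and 80.1 CPM, above the tumor-like cells in 3 of 3 tumors and above the neutrophil-like cells in tumor 3, but the pair was not called (adjusted p = 0.195). The gene was low in B cell-like, T cell-like and plasmacytoid dendritic-like cells, with 5, 5 and 6 UMIs in all.

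Ncam1 was the member whose tumor-like mean stood first among the 11 classes, at 228 ± 42.5 CPM (SD, n = 3). CAF-like cells followed with 89.7 and 127.7 CPM in tumors 1 and 3, and the remaining class means lay between 0 and 57.3 CPM. The log2 difference from CAF-like cells was 1.10 ± 1.13 (SE, adjusted p = 0.545). Against the other 6 classes it was between 2.09 and 3.12, with adjusted p from 0.0667 to 0.260.

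Cells of the same tumor come from the same animal, and with the tumor as a block 10 pairs were called higher and 3 lower. The additional calls were Ncam1 against B cell-like, endothelial-like, macrophage-like, neutrophil-like, plasmacytoid dendritic-like and T cell-like cells (log2 differences of 2.09 to 3.50, adjusted p from 0.000103 to 0.00969), Cd276 against B cell-like cells (adjusted p = 0.0464) and B4galnt1, lower than in plasmacytoid dendritic-like cells (-1.50 ± 0.50, SE, adjusted p = 0.0271). In the 6 classes of the Ncam1 pairs the same fit called 5.67% to 21.3% of all genes higher, and in the last 10.6% lower. The Ncam1 pair not called was that with CAF-like cells (0.73 ± 0.63, SE, adjusted p = 0.427), where 7.97% of all genes were called higher. The Cd276 pair rests on 1 UMI in B cell-like cells, a ratio of 14.6 with an exact 95% interval of 2.57 to 584.

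No pair was called higher with DESeq2, with RLE factors or without tumor 3, and 1 was with the authors' corrected counts or without tumor 2. These calls depend on the test, the scaling and the tumors included.

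**Figure D3:**
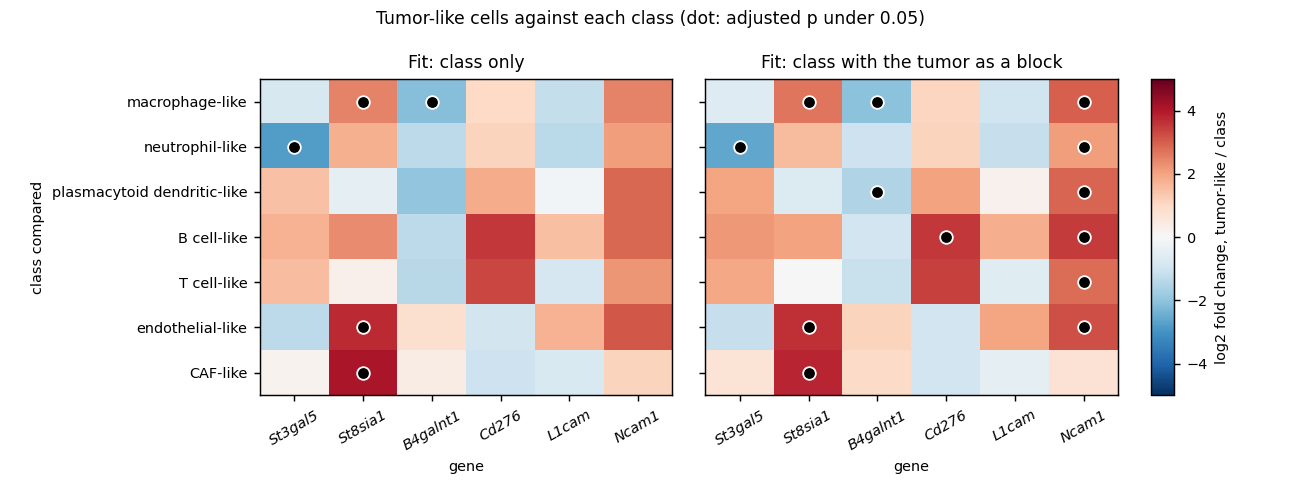
Log2 difference of tumor-like cells from each class (rows) for the 6 genes tested (columns), with the class alone in the fit (left) and with the tumor as a block (right). Red is higher and blue lower in tumor-like cells, and dots mark adjusted p under 0.05: 5 dots on the left and 13 on the right, where the Ncam1 column has a dot in every row except CAF-like.

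The comparison set out first, of tumor-like cells with the unweighted mean of the 10 other classes, called St8sia1 (log2 difference 2.92 ± 0.64, SE, adjusted p = 0.00370) and Ncam1 (3.21 ± 0.77, SE, adjusted p = 0.00576) higher and no member lower, beside 25.7% of all genes called higher and 0.748% lower. This mean gives a lone sum of 12 erythroid-like cells the weight of 889 macrophage-like cells, and its median over all genes was 0.65 rather than near 0. With DESeq2 and with RLE factors these medians were -0.48 and -0.07, the share of calls that were higher went from 97.2% to 4.87% and 70.7%, and neither gene was called. It is not relied on here.

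To see which other class carried a gene, each class was set against the mean of the remaining ones. This comparator is also an unweighted mean of classes and has the same limit: the median over all genes was 0.55 for CAF-like, 0.43 for endothelial-like and 0.52 for macrophage-like cells, so these calls are secondary to the levels per tumor. No member was called higher in B cell-like, erythroid-like, mesothelial-like, NK cell-like or T cell-like cells, where 1.91%, 0.0352%, 9.44%, 1.45% and 1.64% of all genes were. Cd276 was higher in CAF-like cells, with 42.2 and 17.0 CPM in tumors 1 and 3 (log2 difference 2.75 ± 0.71, SE, adjusted p = 0.00759, beside 13.8% of all genes), and in endothelial-like cells, with 53.7, 9.64 and 14.6 CPM in tumors 1 to 3 (2.64 ± 0.67, SE, adjusted p = 0.00855, beside 10.3%). Tumor-like cells held 10.1, 15.2 and 21.99 CPM of Cd276, below both classes in tumor 1. In tumors 2 and 3 these classes had at most 2 UMIs a sum, and CAF-like cells no sum in tumor 2, so no order is read there. In lymphoid cells the gene was near 0, with 1 UMI each over B cell-like and T cell-like cells and none in the 32 NK cell-like cells of tumor 1.

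St3gal5 was higher in neutrophil-like (4.38 ± 0.62, SE, adjusted p = 1.43e-05, beside 11.8% of all genes) and endothelial-like cells (2.76 ± 0.81, SE, adjusted p = 0.0266). St8sia1 was higher in plasmacytoid dendritic-like cells (3.46 ± 0.78, SE, adjusted p = 0.00694, beside 4.51%). B4galnt1 was higher in macrophage-like cells (2.31 ± 0.63, SE, adjusted p = 0.0187, beside 9.45%). L1cam was higher in macrophage-like (2.57 ± 0.70, SE, adjusted p = 0.0187) and neutrophil-like cells (2.74 ± 0.83, SE, adjusted p = 0.0289).

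Of these 8 calls, 4 remained when the mean took in only classes with sums in at least 2 tumors: Cd276 in CAF-like and endothelial-like cells, St3gal5 in neutrophil-like cells and St8sia1 in plasmacytoid dendritic-like cells. With the tumor as a block all 8 were called, and 4 more: Ncam1 in CAF-like cells (2.41 ± 0.62, SE, adjusted p = 0.00388, beside 16.3% of all genes), St3gal5 in macrophage-like cells (2.35 ± 0.70, SE, adjusted p = 0.0135, beside 15.9%), B4galnt1 in plasmacytoid dendritic-like cells (1.97 ± 0.56, SE, adjusted p = 0.0201, beside 6.66%) and St8sia1 in T cell-like cells (2.72 ± 0.67, SE, adjusted p = 0.00996, beside 3.61%).

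L1cam was spread thinly over classes. It had 44.0, 12.9 and 9.68 CPM in macrophage-like cells, 44.6, 7.82 and 15.5 CPM in neutrophil-like cells and 10.2, 41.0 and 17.9 CPM in T cell-like cells, beside 7.19, 12.5 and 10.99 CPM in tumor-like cells. The high values of the myeloid classes came from tumor 1, on 186 UMIs in macrophage-like and 15 in neutrophil-like cells. The T cell-like value of tumor 2 rests on 4 UMIs and that of tumor 3 on 2. Neutrophil-like cells of tumors 2 and 3 held 1 UMI each, so no order between tumors is read from these low counts. In the annotation L1cam overlaps Arhgap4, a gene expressed in blood cells, on the same strand. Arhgap4 reached 68.7 ± 41.3 CPM in neutrophil-like and 30.4 ± 18.8 CPM in macrophage-like cells and 4.80 ± 5.81 CPM in tumor-like cells (SD, n = 3 each). It was also high where L1cam was not, at 45.2 ± 52.0 CPM in B cell-like cells and 42.3 CPM in the lone NK cell-like sum, against 1.46 ± 2.53 and 0 CPM of L1cam. The part of shared reads in the L1cam counts was not tested. Slc26a10, which overlaps B4galnt1 on the opposite strand, had at most 6 UMIs in any class.

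Tumor marker transcripts were also found in cells of other classes, and this bears on every level reported for them. In each non-tumor sum the 10 tumor markers were added up and divided by their level in tumor-like cells of the same tumor. They amounted to 1.87% to 10.1% in the 9 sums of tumor 1, 17.96% to 42.7% in tumor 2 and 25.5% to 49.3% in tumor 3. Single markers carried some of these sums: 87 of the 99 marker UMIs in endothelial-like cells of tumor 1 were Stmn2 and 67 of the 98 in T cell-like cells were Gata3, a factor that T cells use themselves. The median over the 10 markers was 0.359% to 4.92% in tumor 1, 12.8% to 43.2% in tumor 2 and 21.1% to 47.5% in tumor 3. In the corrected counts of the authors, which hold 9 of the markers, the ranges of the summed markers were 2.04% to 13.7%, 20.6% to 54.1% and 17.7% to 56.5%. Their medians over the sums were 5.16%, 38.5% and 32.0%, beside 5.29%, 32.3% and 30.5% in the raw counts, so the summed markers did not fall in tumors 2 and 3.

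Ncam1 in the non-tumor sums had a median of 21.8% of its tumor-like level (0% to 49.9% over 22 sums). It was above the summed markers in 8 sums and above every single marker in 3, those of CAF-like, mesothelial-like and neutrophil-like cells of tumor 1. In tumor 1, where marker transcripts were scarce, Ncam1 was at 0 in B cell-like and NK cell-like cells and at 0.943% and 4.09% of the tumor-like level in T cell-like and macrophage-like cells, but at 49.9% in CAF-like cells (68 UMIs). How much of Ncam1 in the other classes of tumors 2 and 3 is free tumor RNA was not tested.

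Of the other members, Gpc2 was above every tumor marker in 3 of 22 sums, on 1 UMI each. B4galnt1 was above every tumor marker in 19 of 22 sums, St3gal5 and L1cam in 16 each, Cd276 in 13 and St8sia1 in 6, the latter in both plasmacytoid dendritic-like sums. Many of these sums hold few UMIs. Cd276 had 1 in endothelial-like cells of tumor 2, L1cam 1 each in those of tumors 1 and 3, and St8sia1 1 in CAF-like cells of tumor 1. A gene low in tumor-like cells passes this mark on few counts, and the share of all genes that do so was not computed. In tumor 1 the B4galnt1 level of macrophage-like cells was 440% of the tumor-like level, while their summed tumor markers were at 2.05%.

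**Figure D4:**
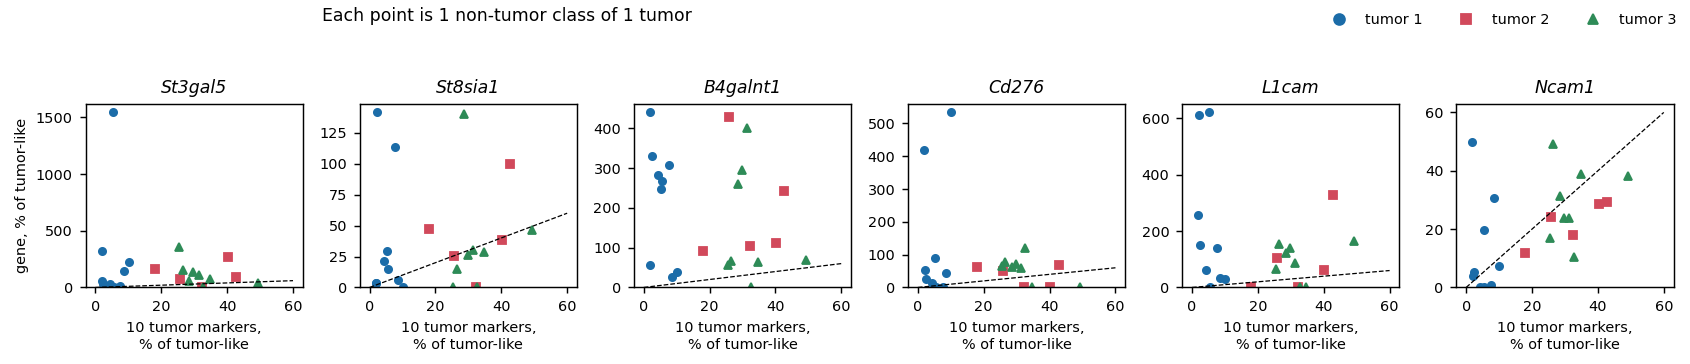
Level of 6 genes in each non-tumor class of each tumor, as a percent of the tumor-like level of that tumor (y axes differ), against the percent for 10 summed tumor markers (x axis). Dashed lines mark equal percents: the Ncam1 points lie above it in 8 of 22 sums and the B4galnt1 points in 21 of 22.

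Per cell, the genes were seen rarely at this depth. After each cell was thinned to 500 UMIs, Ncam1 was found in 3.41%, 7.86% and 9.98% of tumor-like cells of tumors 1, 2 and 3 (unthinned 10.2%, 26.2% and 29.4%, at median depths of 925, 1526 and 1804 UMIs). In macrophage-like cells the thinned shares were 0 of 607 cells, 5% and 4.95% (unthinned 2.97%, 17.0% and 17.6%, at median depths of 8775, 2803 and 3016 UMIs). The tumor-like share was above the macrophage-like share in 3 of 3 tumors. The exact 95% intervals of tumor-like and macrophage-like cells overlapped in tumors 2 and 3 (6.16% to 9.86% against 1.64% to 11.3%, and 8.72% to 11.4% against 2.29% to 9.18%).

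The thinned shares of St3gal5 in tumor-like cells were 1.05%, 0.925% and 0.868%, and in tumors 2 and 3 Cd276 was found in 8 and 21 cells, L1cam in 6 and 7 and Gpc2 in 1 and 1, with none of these 3 genes in the 381 thinned cells of tumor 1. Without thinning the shares in tumor 1 were 1.84% for Cd276, 1.05% for L1cam and 0.525% for Gpc2, so the zeros are those of the thinned depth. For St8sia1 the 3 tumor-like shares were 1.05%, 1.97% and 1.88%, and in macrophage-like cells 0 of 607 cells, 1% and 2.20%. The last is 4 of 182 cells (exact 95% interval 0.602% to 5.53%), so this depth did not separate the classes in tumor 3. Thinned to 1000 UMIs, the shares in tumor 3 were 4.19% of tumor-like and 2.20% of macrophage-like cells. For B4galnt1 the tumor-like shares at 500 UMIs were 3.67%, 0.347% and 1.25%, below the macrophage-like shares of 9.88%, 4% and 3.30% in every tumor.

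No thinned tumor-like cell held both St8sia1 and B4galnt1, the pair needed to make GD2 from GM3. This was 0 of 381, 0 of 865 and 0 of 2074 cells, with exact upper limits of 0.964%, 0.426% and 0.178%. If the genes were detected independently, 0.0386%, 0.00682% and 0.0236% of cells would hold both, so the depth cannot show co-detection or its absence. Without thinning, 3, 5 and 8 cells held both, that is 0.787%, 0.578% and 0.386%. In tumor 1 the share under independent detection would be 0.409%, and its 3 cells also held St3gal5. Unthinned cells differ in depth, so these shares are not read as joint expression. None of the 7 genes was seen in 91.1%, 88.1% and 85.5% of thinned tumor-like cells, while a tumor marker was seen in 53.0%, 68.0% and 67.0%.

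Among the 6 tumor-like clusters, St8sia1 and Ncam1 were higher in cluster 8, a cluster of 284 cells (16, 87 and 181 in tumors 1, 2 and 3) led by Pde10a, Adarb2 and the nuclear noncoding RNA Meg3. The 7 genes and the 53 list genes named below were held out of the genes used for clustering, but genes that vary with them were not, so a test between clusters is not independent of how they were formed. Cluster 8 also had the highest median depth of the 6, at 2234.5 UMIs, and the part of depth in the result was not tested.

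Ncam1 reached 580, 576 and 444 CPM in cluster 8 of tumors 1, 2 and 3, and lay between 0 and 323 CPM in the other clusters. No other cluster reached any of these values, and the log2 difference from the mean of the other clusters was 1.73 ± 0.28 (SE, n = 3, adjusted p = 0.000349, beside 8.29% of all genes called higher in this cluster). St8sia1 reached 99.1, 65.9 and 119 CPM, against 0 to 76.9 CPM elsewhere. Cluster 8 was the highest of its tumor for St8sia1 in each tumor, although cluster 7 of tumor 3 exceeded cluster 8 of tumor 2. This was a log2 difference of 1.32 ± 0.29 (SE, n = 3, adjusted p = 0.00438). Without tumor 2 neither call held (adjusted p = 0.0871 and 0.103), and without tumor 3 St8sia1 did not (0.252).

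B4galnt1 was tested in the same clusters and was not called in any. Its values of 28.3, 38.2 and 31.0 CPM in cluster 8 were within those of the other clusters, and the log2 difference was 0.13 ± 0.56 (SE, adjusted p = 0.933). L1cam was not tested among clusters for lack of counts, and 25 of its 59 tumor-like UMIs lay in cluster 8, including all 5 of tumor 1. Over all genes, cluster 8 held 147667 of 648145 tumor-like UMIs in tumor 1, 315699 of 1662084 in tumor 2 and 475437 of 3912100 in tumor 3. In cluster 7 of tumor 1, the 64 cells with few tumor markers, Ncam1 was at 0 and B4galnt1 at 295 CPM.

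**Figure D5:**
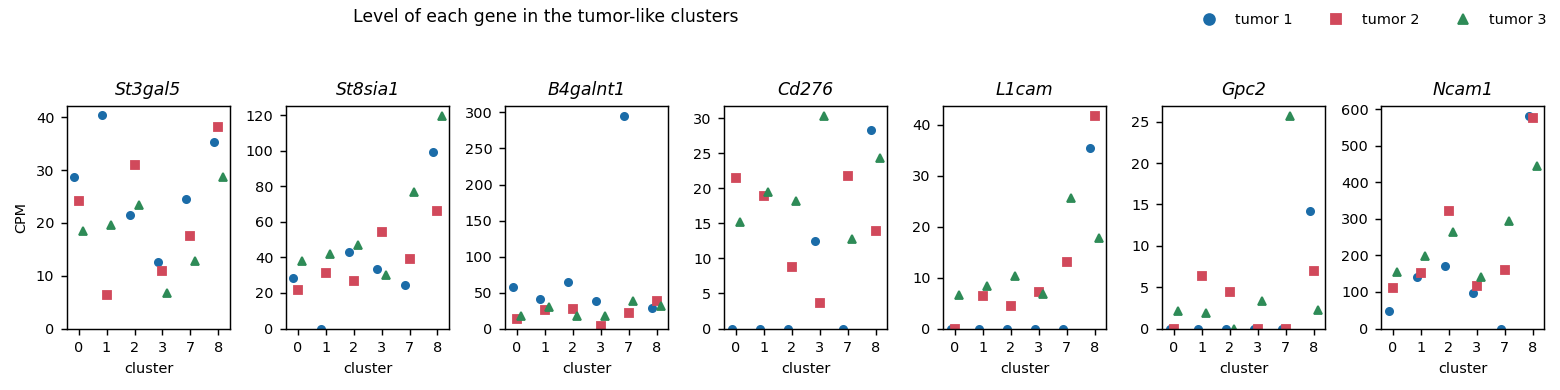
CPM of each gene (y axes differ) in the 6 tumor-like clusters (x axis, cluster numbers) of each tumor (symbols). Cluster 8 holds the highest Ncam1 values of all 3 tumors, 444 to 580 CPM, and cluster 7 of tumor 1 stands apart with B4galnt1 at 295 CPM and Ncam1 at 0.

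Over the 25 sums of class and tumor, the genes whose log2 CPM was most like that of Ncam1 were Ptov1, Tuba1a and Map1b (Pearson r = 0.923, 0.902 and 0.900), the latter being genes of the neuronal cytoskeleton. For B4galnt1 they were Csk, Stk4 and Rilpl2 (0.888, 0.879 and 0.859), of which Csk and Stk4 encode kinases that act in immune cells. For St3gal5 they were Marcks, App and Slc31a1 (0.878, 0.856 and 0.847). The best for St8sia1 were Pcyt2, A130010J15Rik and 1500011B03Rik (0.761, 0.734 and 0.729), for Cd276 Akap1, Cdr2l and Creld1 (0.812, 0.759 and 0.754) and for L1cam Tmem251, Vav3 and Rbm7 (0.754, 0.724 and 0.724). These correlations describe sums that share tumors, depth and free RNA. St8sia1 and B4galnt1 themselves had r = 0.34 over these sums, and B4galnt1 and Ncam1 had r = -0.49.

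The rest of the pathway was described from lists, in tumor-like cells against all other named cells summed per tumor. The genes of ganglioside breakdown, enzymes and their activator proteins, were the clearest group. Of 10 listed, 8 were tested, 7 were lower, none was higher and Glb1 was not called (-0.36), beside 25% of all genes called lower and 8.37% higher in this comparison. Their median log2 difference was -3.07, beside -0.02 over all genes tested. Against the unweighted mean of classes, 1 of 9 tested (Psap) was called lower. There Neu1 and Glb1 took the other sign (0.27 and 1.13), and neither was called. Gm2a, the GM2 activator protein, had 17.3 ± 12.6 CPM in tumor-like and 408 ± 229 CPM in other cells (SD, n = 3, log2 difference -4.69, adjusted p = 0.00230). Psap, the saposin precursor, differed by -4.27 (adjusted p = 0.00116).

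Of the 3 precursor enzymes, the glucosyltransferase Ugcg (-0.97, adjusted p = 0.0373) and the galactosyltransferase B4galt5 (-1.13, adjusted p = 0.0434) were lower, and B4galt6 was not called (0.38, adjusted p = 0.337). Among 10 genes of elongation and competing branches, 4 were tested: the sialyltransferase St8sia3 was higher (15.8 ± 0.650 CPM against 3.39 ± 2.67, SD, n = 3, log2 difference 2.89, adjusted p = 0.0449), St3gal1 was lower (-4.05, adjusted p = 0.00811) and St6galnac6 and St3gal2 were not called. None of the 4 tested genes of CMP-sialic acid supply was called, Cmas being the nearest (0.77, adjusted p = 0.0673). The enzymes that put polysialic acid on Ncam1 were not called either, with St8sia2 at 1.32 (adjusted p = 0.386) and St8sia4 at -3.54 (adjusted p = 0.0724).

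Among 16 relatives of the surface proteins, 11 were tested, of which 1 was higher and 5 were lower, beside 8.37% and 25% of all genes, so that the share called higher was near the background. Nrcam, an L1 family adhesion molecule, had 19.4 ± 9.61 CPM in tumor-like and 3.46 ± 2.54 CPM in other cells (SD, n = 3, log2 difference 3.102, adjusted p = 0.0313). The lower genes were led by the immune ligands Cd86 (-6.77, adjusted p = 0.000968) and Vsir (-5.46, adjusted p = 0.00384) and the glypican Gpc4 (-4.98, adjusted p = 0.00256), followed by Cd274 (-4.78) and Gpc6 (-1.15). Gpc6 took the other sign, 2.99, against the unweighted mean of classes. Of 7 other surface targets studied in neuroblastoma, 4 were tested, with Cd47 (-3.76, adjusted p = 0.00195) and Mcam (-3.24, adjusted p = 0.00193) lower. Dlk1 had 659 ± 120 CPM in tumor-like and 161 ± 140 CPM in other cells (SD, n = 3) and was not called (2.05, adjusted p = 0.131), nor was Cd24a (0.72, adjusted p = 0.0690).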

How the data were processed

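Whole tumors of 3 mice were dissociated and profiled with 10x Genomics 3' chemistry. The authors deposited raw UMI counts per gene and barcode (Cell Ranger 3.1.0, mm10, per the labels) and a second table per tumor on a natural log scale, which the authors made by removing ambient RNA, doublets and out-of-limit barcodes, and which returned whole corrected counts (100% within 1e-06). Barcodes in the second table were kept. Raw counts were used throughout.

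Cells were integrated in Seurat 5.3.0 (R 4.3.3; 2000 genes, 30 dimensions, 20 neighbors, resolution 1) without the 60 genes studied. A cluster was named from at least 3 markers with a fold of 2 in at least 10% of cells. The marker fold and the counting of hemoglobins as 1 marker were set after the clusters were seen, and borders among tumor-like clusters moved with the numerical library used. Members, lists and tests were chosen with earlier results of these data known.

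Counts were summed per tumor and class (at least 10 cells) and tested with edgeR 4.0.16 (quasi-likelihood, filterByExpr, TMM, Benjamini-Hochberg over all genes, threshold 0.05). The sum of all other named cells per tumor was added as a comparator after the data were seen. The reason was that on simulated counts, in a single draw each, the planned unweighted mean gave 14.1% false calls among its calls and the summed comparator 2.94%. The named genes are the 7 members, the 3 genes most correlated with each over 25 sums (log2 CPM, prior count 2), and genes of the fixed lists. DESeq2 1.42.0, RLE factors, no filter, other resolutions, 20 cells per sum, corrected counts, a tumor block and leaving out each tumor were alternatives. The tumor number pairs the samples, since classes of a tumor come from 1 animal: deviations of classes of the same tumor correlated with a median r of 0.244 (-0.0165 to 0.605, 45 pairs), those of different tumors with -0.198 (90 pairs). p-values against the summed cells rest on 3 sums a side. Those of classes and of clusters use a spread pooled over 25 and 18 sums of the same 3 animals, with CAF-like and plasmacytoid dendritic-like cells in 2 tumors. Without the tumor block, sums of the same animal are treated as independent. Intervals are exact and cover counting error only. Values of some genes of the lists are not reported here.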

Additional observations from a re-analysis of the deposited data

Results flagged for a closer look

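Transcripts of all 7 genes were also found in barcodes that the authors removed and that no comparison above uses. The lowest level over the 3 tumors was 73.5 CPM for Ncam1, 19.0 CPM for St3gal5, 16.5 CPM for B4galnt1, 14.9 CPM for St8sia1, 14.1 CPM for Cd276 and 9.81 CPM for L1cam. Gpc2 had 1, 32 and 27 UMIs in removed barcodes of tumors 1, 2 and 3, against 3, 5 and 9 UMIs in kept cells, and in tumor 1 its level was under that of 3 counts. Ncam1 reached 73.5, 608 and 446 CPM in removed barcodes of tumors 1, 2 and 3, against 22.3, 172 and 178.5 CPM in kept cells. It was higher in the removed barcodes of every tumor, while B4galnt1 was lower in each, at 48.2, 20.3 and 16.5 CPM against 116, 30.3 and 32.4 CPM. The authors kept 58.8%, 28.2% and 41.7% of the barcodes of tumors 1, 2 and 3. Removed barcodes had medians of 925, 5351.5 and 3703 UMIs, against 4282.5, 1594 and 1816 in kept cells, so in tumors 2 and 3 the kept cells were the shallower part. In tumor 2 the removed barcodes held 11601 UMIs of Ncam1 and the kept cells 472. The levels reported above describe kept cells only. The removed barcodes had median mitochondrial shares of 27.9%, 34.99% and 37.7%, and the part of damaged cells in these levels was not tested.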

How the results depend on the processing

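The unweighted mean of the other classes was the least stable comparison. Its 2923 genes called higher became 81 with DESeq2, 29 with RLE factors, 593 at resolution 0.5, 1398 with corrected counts, 1437 with classes present in at least 2 tumors, 856 with other cells summed per tumor and 1444 with that sum and the tumor block, and 0 to 1529 when a tumor was left out. Its 85 genes called lower became 1582, 12 (RLE), 140 (no filter, and without cluster 7), 1026 (20 cells per sum), 23 (corrected counts), 1616 (without cells holding a tumor marker UMI), 1368 (classes in at least 2 tumors), 2557 and 2753 (summed, without and with the block), and 0 to 514 without a tumor. Its 2 called members became 0 with DESeq2 and RLE, 4 without cells holding a marker UMI and 0 to 2 without a tumor.

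In that comparison L1cam changed sign with DESeq2 (-0.32), classes in at least 2 tumors (-0.43) and summed cells (-0.93, with the block -0.75). St3gal5 did so in the same settings (-0.22, -0.27, -1.01 and -0.93), and B4galnt1, near 0, with the block (0.33), and with corrected counts (0.81), while leaving out a tumor gave -0.87 to 0.073. The cause was not tested.

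The 3 pairs called higher became 0 with DESeq2 and RLE, 9 with no filter, 10 with the replicate block, 1 with corrected counts and 0 to 3 without a tumor. The 2 called lower became 5 with RLE, 1 with corrected counts and 1 without any tumor. Without cells holding a tumor marker UMI no pair could be tested. The 8 calls in other classes became 3 with DESeq2, resolution 0.5 or corrected counts, 5 with 20 cells per sum, 4 with classes in at least 2 tumors and 1 to 9 without a tumor. The 2 calls among tumor-like clusters became 0 to 2 without a tumor. Against the summed cells, the 2 higher members became 0 with corrected counts and 0 to 2 without a tumor, and the 2 lower became 1 with DESeq2 or corrected counts and 0 to 2 without a tumor.

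With 3 tumors, simulated differences of 2 on the log2 scale were found in 38% (higher) and 30% (lower) of genes against the summed cells. Those of 4 were found in 100% and 98.0%. The simulation was a single draw with a common dispersion (spread between sums) of 0.262, taken from the fit of 25 class sums rather than from the summed cells. Its changed genes were drawn only from genes expressed above the level of Cd276 and L1cam, and recovery was not broken down by expression level. These shares therefore need not hold for Cd276 and L1cam, which were not called. A missed call says little about small differences. Kept cells had medians of 1594 to 4282.5 UMIs, which limits shares of cells for genes this low.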
